A study of Sus scrofa with 8 samples.

Results

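Genes that set the acidity and the potassium balance of the fluid on an epithelium were followed in the olfactory epithelium of newborn pigs. The set holds 8 genes: the proton pump gene ATP12A and its accessory subunit gene ATP1B1, the potassium channel genes KCNQ1, KCNE3 and KCNN4, the sodium-proton exchanger gene SLC9A3 and the carbonic anhydrase genes CA2 and CA12. They were taken by symbol from a count table of 25880 pig genes, and each of the 8 symbols matched 1 Ensembl identifier. For 7 of them the position also overlaps the RefSeq gene of that symbol, and for CA2 it does not, so that the name of CA2 rests on the identifier alone. RNA-seq libraries came from 4 newborn CFTR knockout piglets, numbered 6, 18, 20 and 21, and from 4 newborn wild-type piglets, numbered 5, 9, 12 and 23. CFTR, an epithelial anion channel, is the gene mutated in cystic fibrosis, and per its title the series addresses olfactory defects in that disease. The labels call the knockout animals null for CFTR, without the allele, and give no litter, sex, batch or treatment in either group.

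An epithelium that lacks CFTR secretes less bicarbonate, and the acidity of its surface liquid then depends on the routes that add or remove protons. ATP12A exchanges cytosolic protons for external potassium at the apical membrane, and in pig and human airways it acidifies the surface liquid. KCNQ1 with its partner KCNE3, and the calcium-activated channel KCNN4, let potassium leave the cell and so keep the electrical driving force for chloride exit. SLC9A3, also called NHE3, takes up sodium in exchange for protons, and carbonic anhydrases convert carbon dioxide and water into bicarbonate and protons, CA2 in the cytosol and CA12 at the outer cell surface.

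Libraries held 39915150 to 43253395 counts in knockout piglets and 30836904 to 42281883 in wild-type piglets. CFTR itself averaged 6.84 ± 1.36 counts per 1000000 counts of the library (CPM, with TMM scaling) in knockout and 40.4 ± 10.9 CPM in wild-type piglets (SD, n = 4 each), with no overlap between the groups, and fell by 2.56 ± 0.21 on the log2 scale (SE, edgeR adjusted p = 0.0121). That call was lost without knockout piglet 6 (edgeR adjusted p = 0.122) or knockout piglet 20 (0.0544), where the log2 fold change was -2.52 and -2.60. With all libraries the CFTR adjusted p was 2.42e-27 in DESeq2 and 0.00399 in limma with sample quality weights. Olfactory sensory neuron markers were abundant in every library: 7 of 8 were matched, and summed to 4950 to 5820 CPM in knockout and 3040 to 4960 CPM in wild-type piglets. OMP, KRT5 and KRT14 had no match among the identifiers and are not analysed here, and no matched marker of any list was at 0 in every library. Knockout piglet 18 stood apart in markers of bone cells. Its osteoclast markers summed to 1030 CPM, against 8.52 to 15.6 CPM in the other knockout piglets and 9.19 to 116 CPM in wild-type piglets. Osteoblast and bone markers, 5 of 6 matched, summed to 24100 CPM in piglet 18. They summed to 515 to 970 CPM in the other knockout piglets and 830 to 2670 CPM in wild-type piglets. Of the wild-type piglets, piglet 9 had the highest sum in both lists. Wild-type piglet 5 stood apart in the sum of gland and secretory markers, 1530 CPM, against 443 to 583 CPM in knockout piglets and 376 to 740 CPM in the other wild-type piglets. BPIFA1 (663 CPM), AGR2 (381 CPM), MUC5B (338 CPM) and MUC5AC (101 CPM) were each highest in piglet 5. The other markers of the list, SOX9, BPIFB1, SPDEF, LTF and SCGB1A1, were each highest in a knockout piglet. In bulk tissue, more cells of a type and more RNA per cell cannot be told apart.

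Levels of the 8 genes were compared per exon length (RPKM, CPM per kilobase of exon). ATP1B1 was far above the rest at 269 to 405 RPKM, higher than 99.5% of the 17175 genes tested. SLC9A3 followed at 7.01 to 18.5 RPKM, and its range overlapped neither ATP1B1 above nor KCNE3 below. KCNE3 (2.14 to 4.59 RPKM), CA2 (1.45 to 3.14 RPKM) and KCNQ1 (1.21 to 2.54 RPKM) had overlapping ranges, with KCNE3 above CA2 in 7 of 8 libraries and CA2 above KCNQ1 in 6 of 8. CA12 came next at 0.393 to 1.26 RPKM. ATP12A, at 0.187 to 0.748 RPKM, was below CA12 in all 8 libraries although their ranges overlapped. KCNN4 had the lowest mean, with 0.043 to 0.590 RPKM from 5 to 65 reads per library. It was below ATP12A in 7 of 8 libraries, the exception being wild-type piglet 5, where its 0.590 RPKM exceeded ATP12A (0.187 RPKM) and CA12 (0.393 RPKM).

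**Figure D1:**
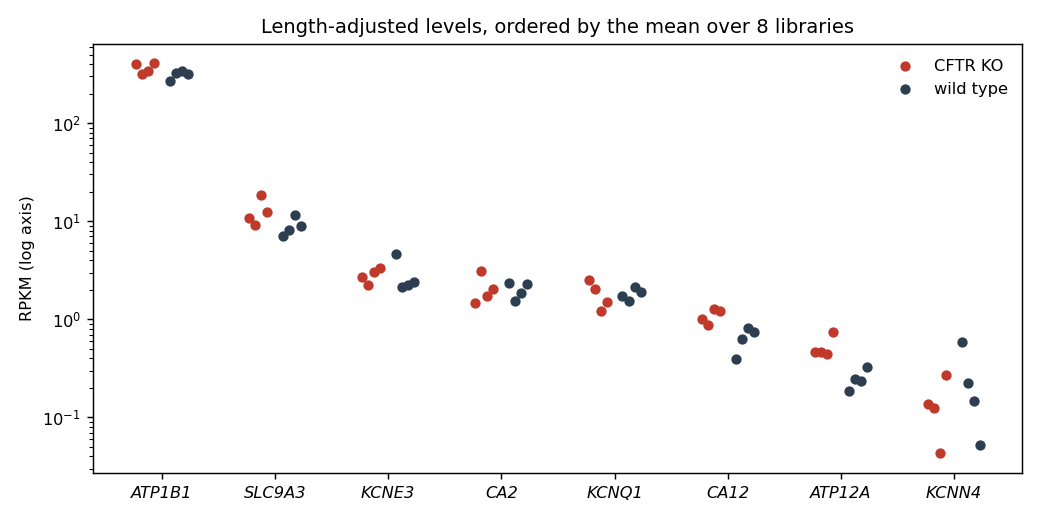
Length-adjusted level of each gene in RPKM on a log axis, with 1 point per piglet, knockout in red and wild type in dark blue. ATP1B1 sits at 269 RPKM or above in every library and KCNN4 at 0.590 RPKM or below, and the knockout and wild-type points separate in ATP12A and CA12.

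The comparison of genotypes asked whether these genes differ where CFTR is absent. In CPM with TMM scaling, ATP12A and CA12 were the members whose 4 knockout values all lay above the 4 wild-type values. For CA12 this separation depends on the scaling, as given below. Non-overlap with higher knockout values occurred in 2 of the 8 members and in 2.45% of all genes tested. No member was called by edgeR's quasi-likelihood test after Benjamini-Hochberg adjustment over all genes, and 1 gene of 17175 was, CFTR (0.00582%). At an unadjusted p under 0.05 the same test gave 2 of 8 members, against 11.2% of all genes. DESeq2 called 1 member, ATP12A, higher in knockout piglets, as it did 0.539% of the 17449 genes to which it gave an adjusted p, and limma with sample quality weights called none of the members. The log2 fold change was above 0 in 6 of 8 members with a median of 0.14, against 51.6% of all genes with a median of 0.01.

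**Figure D2:**
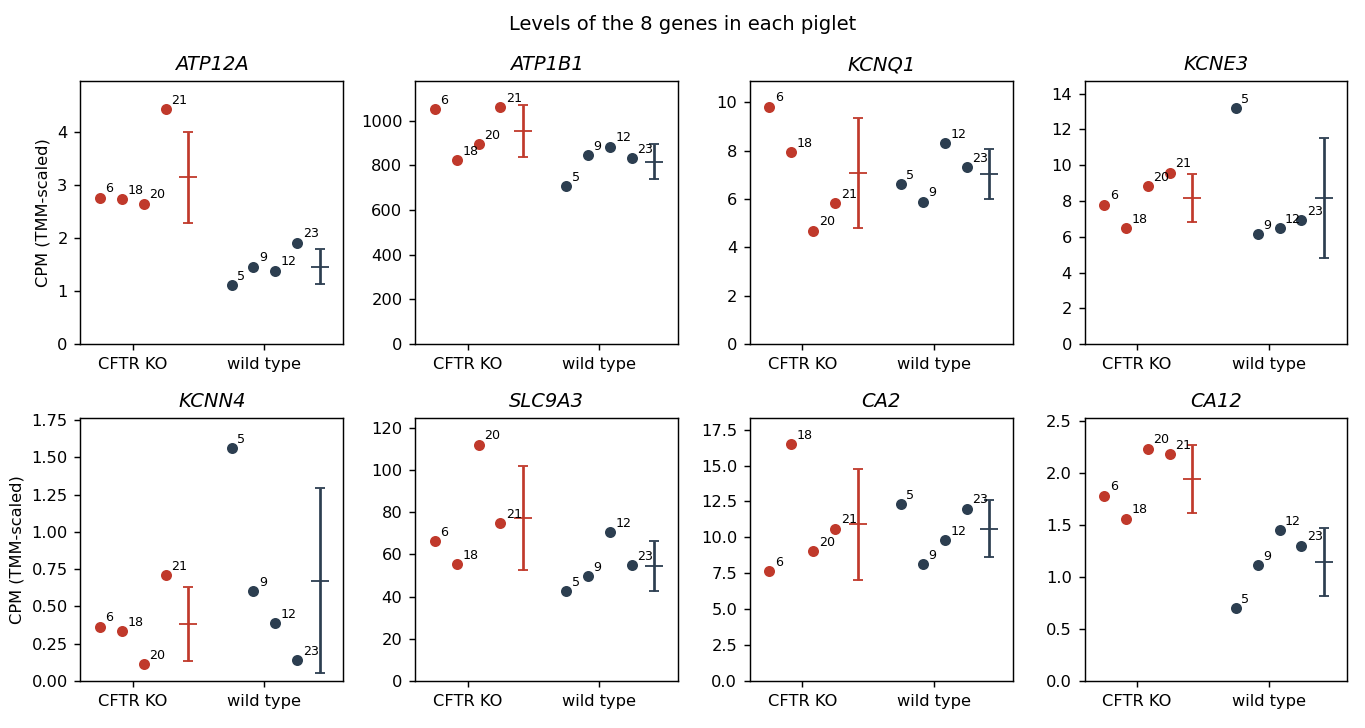
CPM of each gene in each piglet (points, labelled by piglet number), with knockout at left and wild type at right of each panel, and the mean ± SD of each group (bars, n = 4 each). In ATP12A and CA12 the groups do not overlap, while KCNE3 and KCNN4 have their highest value in wild-type piglet 5 and CA2 in knockout piglet 18.

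ATP12A (ENSSSCG00000022638, chromosome 11, 119642 to 145996 on the plus strand, build not stated) encodes the catalytic subunit of the non-gastric proton-potassium pump. Its reads numbered 121, 98, 116 and 187 in knockout piglets 6, 18, 20 and 21, against 46, 46, 57 and 82 in wild-type piglets 5, 9, 12 and 23. Scaled to library size these were 2.76, 2.73, 2.64 and 4.42 CPM in knockout piglets, against 1.11, 1.46, 1.38 and 1.91 CPM in wild-type piglets. The lowest knockout value was thus above the highest wild-type value, and 3 knockout piglets lay close together, with piglet 21 above them. The fitted level was 2.14-fold higher in knockout piglets, a log2 fold change of 1.10 ± 0.27 (SE), with an edgeR adjusted p of 0.334 and a DESeq2 adjusted p of 0.0138. In DESeq2 the call was lost without knockout piglet 6 (adjusted p = 0.0582), without knockout piglet 21 (0.113) and without wild-type piglet 9 (0.101), while the log2 fold change without each library in turn stayed between 0.89 and 1.26.

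ATP4A, the catalytic subunit of the gastric proton pump, is a relative of ATP12A. It had 1.53, 1.48, 1.57 and 1.82 CPM in knockout piglets 6, 18, 20 and 21, against 0.745, 0.760, 0.701 and 1.0 CPM in wild-type piglets 5, 9, 12 and 23. These groups did not overlap either, and every knockout value was at least 1.48 CPM. The reads behind them were few, at 67, 53, 69 and 77 in the knockout and 31, 24, 29 and 43 in the wild-type piglets. Its log2 fold change of 0.99 ± 0.23 had an edgeR adjusted p of 0.326 and a DESeq2 adjusted p of 0.0182, and the DESeq2 call was lost in 5 of the 8 fits that left out 1 library (highest adjusted p = 0.177). The gastric accessory subunit gene ATP4B had 1 read over all 8 libraries.

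ATP1B1 (ENSSSCG00000006296, chromosome 4, 81894724 to 81937400 on the minus strand) encodes the accessory subunit of the sodium pump, which can also pair with ATP12A. Its level was 1050, 823, 893 and 1060 CPM in knockout piglets 6, 18, 20 and 21, against 705, 846, 883 and 831 CPM in wild-type piglets 5, 9, 12 and 23. The groups overlapped, and the highest values came from knockout piglets 6 and 21. On the log2 scale the genotypes differed by 0.23 ± 0.12 (SE, edgeR adjusted p = 0.485). An exon of ATP1B1 overlaps NME7 on the opposite strand, a gene with 1159 to 1971 reads per library where ATP1B1 had 26730 to 45885.

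Among the sodium and proton pump subunits and their FXYD regulators, 12 of 18 listed genes were tested, 8 with a positive and 4 with a negative log2 fold change and a median of 0.13. edgeR called none of them. An unadjusted p under 0.05, found in 11.2% of all genes tested, was reached by 2 higher genes, ATP12A and ATP4A, and by 1 lower gene, ATP1B3. DESeq2 called ATP12A and ATP4A, both higher, as it did 0.539% of all genes to which it gave an adjusted p. ATP1B3, an alternative accessory subunit of the sodium pump named by position, had 42.1 to 55.3 CPM in knockout and 48.7 to 81.3 CPM in wild-type piglets, a log2 difference of -0.52 ± 0.15 (edgeR adjusted p = 0.371), and its exons overlap TFDP2 on the opposite strand. FXYD3, a small pump regulator, averaged 105 RPKM and had an edgeR adjusted p of 0.802 at a log2 fold change of 0.17 ± 0.26.

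KCNQ1 (ENSSSCG00000039556, chromosome 2, 1675304 to 1989503 on the plus strand) encodes the pore of a basolateral potassium channel. It had 9.82, 7.94, 4.7 and 5.84 CPM in knockout piglets 6, 18, 20 and 21, against 6.61, 5.89, 8.32 and 7.31 CPM in wild-type piglets 5, 9, 12 and 23. The knockout piglets held both the highest and the lowest value of the 8. With all libraries the log2 fold change was 0.01 ± 0.24 (edgeR adjusted p = 0.992), and its sign depended on the libraries included, from -0.19 without knockout piglet 6 to 0.16 without knockout piglet 20.

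KCNE3 (ENSSSCG00000029323, chromosome 9, 8810703 to 8822341 on the minus strand) encodes the partner that holds the KCNQ1 channel open. It had 7.79, 6.47, 8.82 and 9.58 CPM in knockout piglets 6, 18, 20 and 21, against 13.2, 6.14, 6.48 and 6.93 CPM in wild-type piglets 5, 9, 12 and 23. Wild-type piglet 5 was the highest of all, and the other 3 wild-type piglets lay at or below the level of most knockout piglets. The log2 fold change was 0.00 ± 0.26 with all libraries (edgeR adjusted p = 0.997) and 0.32 without wild-type piglet 5 (edgeR adjusted p = 0.447). Piglet 5 is the library with the high sum of gland and secretory markers, which only some markers of the list followed. The part of these cells in the KCNE3 value was not tested. The ratio of KCNE3 to KCNQ1 in RPKM was 1.07, 1.10, 2.53 and 2.21 in knockout piglets 6, 18, 20 and 21, against 2.68, 1.41, 1.05 and 1.28 in wild-type piglets 5, 9, 12 and 23, so that 3 libraries had more than 2 KCNE3 per KCNQ1 and the rest between 1.05 and 1.41.

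KCNN4 (ENSSSCG00000003069, chromosome 6, 50579641 to 50593834 on the minus strand), the calcium-activated channel of intermediate conductance, was close to the limit of detection. It had 16, 12, 5 and 30 reads in knockout piglets 6, 18, 20 and 21, against 65, 19, 16 and 6 reads in wild-type piglets 5, 9, 12 and 23. Values differed 6.23-fold among knockout and 11.2-fold among wild-type piglets, the widest spread of the 8 genes in both groups. Its log2 fold change of -0.82 ± 0.73 (edgeR adjusted p = 0.652) rested on wild-type piglet 5, since it was 0.03 without that library.

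In a list of 28 epithelial potassium channel genes and subunits, 24 were tested, 13 with a positive and 11 with a negative log2 fold change and a median of 0.02. edgeR and DESeq2 called none, and 1 gene, KCNJ1, had an unadjusted edgeR p under 0.05, against 11.2% of all genes tested. KCNJ1, the inward rectifier ROMK known from the kidney tubule, had 1.07, 0.279, 0.479 and 0.0473 CPM in knockout piglets 6, 18, 20 and 21, against 5.17, 1.20, 4.40 and 0.721 CPM in wild-type piglets 5, 9, 12 and 23. The highest values came from wild-type piglets 5 and 12, and knockout piglet 6 exceeded wild-type piglet 23. KCNJ1 differed by -2.60 ± 0.86 in log2 fold change (edgeR adjusted p = 0.398, DESeq2 adjusted p = 0.0621). KCNMA1, the pore of the large-conductance calcium-activated channel, had a log2 fold change of 0.33 ± 0.20, and its accessory subunits differed in sign, KCNMB4 at -0.37 ± 0.23 and KCNMB3 at 0.34 ± 0.31. KCNE4, a relative of KCNE3 that inhibits KCNQ1, was at 0.189 to 0.362 CPM in knockout and 0.290 to 0.818 CPM in wild-type piglets. By level, KCNMB3 (25.5 RPKM) and the inward rectifier KCNJ2 (21.3 RPKM) led the list, and both stood above KCNE3 (2.85 RPKM) and KCNQ1 (1.82 RPKM).

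SLC9A3 (ENSSSCG00000039413, chromosome 16, 79625262 to 79703497 on the plus strand) had 66.2, 55.3, 112 and 74.8 CPM in knockout piglets 6, 18, 20 and 21, against 42.6, 49.6, 70.6 and 54.7 CPM in wild-type piglets 5, 9, 12 and 23. Knockout piglet 20 was highest, and wild-type piglet 12 lay above knockout piglets 6 and 18. For SLC9A3 the log2 fold change was 0.50 ± 0.23 (edgeR adjusted p = 0.448, DESeq2 adjusted p = 0.338). It was 0.27 without knockout piglet 20 and 0.40 to 0.65 when any other library was left out.

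Of the sodium-proton exchangers, their cofactors and the proton channel HVCN1, all 14 listed genes were tested, 9 with a positive and 5 with a negative log2 fold change and a median of 0.15. None reached an unadjusted edgeR p under 0.05, and neither edgeR nor DESeq2 called any. SLC9A3 had the highest log2 fold change of the list. SLC9A5, an exchanger known from neurons, had the lowest, with 2.29 to 4.79 CPM in knockout and 4.59 to 5.84 CPM in wild-type piglets (log2 fold change -0.58 ± 0.26, edgeR adjusted p = 0.448). The organellar exchangers SLC9A7 of the trans-Golgi network and SLC9A9 of late endosomes had log2 fold changes of 0.39 ± 0.21 and 0.22 ± 0.13. CHP1, a calcium-binding cofactor of the exchangers, differed by -0.19 ± 0.11 on the log2 scale (edgeR adjusted p = 0.507).

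CA12 (ENSSSCG00000004565, chromosome 1, 108649274 to 108708185 on the plus strand), the carbonic anhydrase with its active site outside the cell, had 78, 56, 98 and 92 reads in knockout piglets 6, 18, 20 and 21, against 29, 35, 60 and 56 reads in wild-type piglets 5, 9, 12 and 23. In CPM these were 1.78, 1.56, 2.23 and 2.18 in knockout piglets, against 0.697, 1.11, 1.45 and 1.3 in wild-type piglets. The groups did not overlap, though knockout piglet 18 was only slightly above wild-type piglet 12. The order of these 2 piglets rests on their TMM factors, 0.8993 for piglet 18 and 1.0072 for piglet 12. Per total count alone (56 reads of 39915150, against 60 of 41084346), piglet 18 lay below piglet 12 and the groups overlapped. The log2 fold change was 0.76 ± 0.28, a 1.70-fold higher level (edgeR adjusted p = 0.409, DESeq2 adjusted p = 0.205), and it was 0.58 without wild-type piglet 5, the lowest library.

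CA2 (ENSSSCG00000006140, chromosome 4, 51191686 to 51211922 on the minus strand), the cytosolic enzyme that also serves acid secretion in osteoclasts, had 7.63, 16.5, 9.05 and 10.6 CPM in knockout piglets 6, 18, 20 and 21, against 12.3, 8.13, 9.79 and 12 CPM in wild-type piglets 5, 9, 12 and 23. Knockout piglet 18 was highest, and the other 3 knockout piglets lay within or just below the wild-type range. For CA2 the log2 fold change was 0.05 ± 0.25 (edgeR adjusted p = 0.948) and -0.22 without piglet 18 (edgeR adjusted p = 0.631). Piglet 18 is the library with 1030 CPM of summed osteoclast markers, 6 of 7 of which were matched. Wild-type piglet 9 had the next highest osteoclast sum, 116 CPM, and the lowest CA2 value of the wild type, 8.13 CPM. The part of osteoclasts in the CA2 values was not tested. In knockout piglet 18 the erythroid markers, 6 of 8 matched, were also highest, at 297 CPM. They summed to 77.5 to 136 CPM in the other knockout piglets and 34.7 to 119 CPM in wild-type piglets. CA1, the red cell anhydrase, had 1 read in piglet 18. CA3, known from muscle and fat, lies on the same strand with 667 bases between it and CA2, and had 13.5 CPM in piglet 18, against 0.524 to 0.875 CPM in the other knockout piglets and 0.698 to 2.37 CPM in wild-type piglets.

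CA12 was the rarer of the pair in every library. The ratio of CA12 to CA2 in RPKM was 0.689, 0.280, 0.730 and 0.609 in knockout piglets 6, 18, 20 and 21, against 0.168, 0.403, 0.438 and 0.320 in wild-type piglets 5, 9, 12 and 23. The 3 knockout piglets other than 18 lay above all wild-type piglets.

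Of 16 carbonic anhydrase genes listed, 10 were tested, 7 with a positive and 3 with a negative log2 fold change and a median of 0.33. edgeR and DESeq2 called none. CA12 and CA8 had an unadjusted edgeR p under 0.05, both higher in knockout piglets, against 11.2% of all genes tested in either direction. CA8, a relative without catalytic activity, had 20.7 to 36.3 CPM in knockout and 19.1 to 23.4 CPM in wild-type piglets (log2 fold change 0.41 ± 0.16, edgeR adjusted p = 0.423), and an unnamed gene on the opposite strand overlaps its exons. CA5A, the mitochondrial enzyme, was at 0.613 to 0.757 CPM in knockout and 0.745 to 1.51 CPM in wild-type piglets (log2 fold change -0.60 ± 0.29, edgeR adjusted p = 0.460). CA13, a cytosolic enzyme, had a log2 fold change of 0.43 ± 0.25. CA9, a membrane enzyme induced by hypoxia and named here by position, was the most abundant of the list at 10.3 RPKM, with a log2 fold change of -0.02 ± 0.14.

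Of 10 bicarbonate transporter genes of the SLC4 family, 9 were tested, 4 with a positive and 5 with a negative log2 fold change and a median of -0.01. edgeR and DESeq2 called none. SLC4A8, a sodium-driven chloride-bicarbonate exchanger, had 185 to 242 CPM in knockout and 145 to 224 CPM in wild-type piglets (log2 fold change 0.35 ± 0.15, edgeR adjusted p = 0.431). It was the 1 gene of the list with an unadjusted edgeR p under 0.05, against 11.2% of all genes tested. SLC4A4, the sodium-bicarbonate cotransporter, had a log2 fold change of 0.26 ± 0.12, SLC4A10, a neuronal bicarbonate transporter, of -0.59 ± 0.31 and SLC4A9, also called AE4, of 0.36 ± 0.27. SLC4A11, a family member that carries proton equivalents and not bicarbonate, was the most abundant at 64.2 RPKM, with 257 to 322 CPM in knockout and 248 to 420 CPM in wild-type piglets. Exons of SLC4A4 overlap MOB1B, and those of SLC4A11 overlap ITPA.

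**Figure D3:**
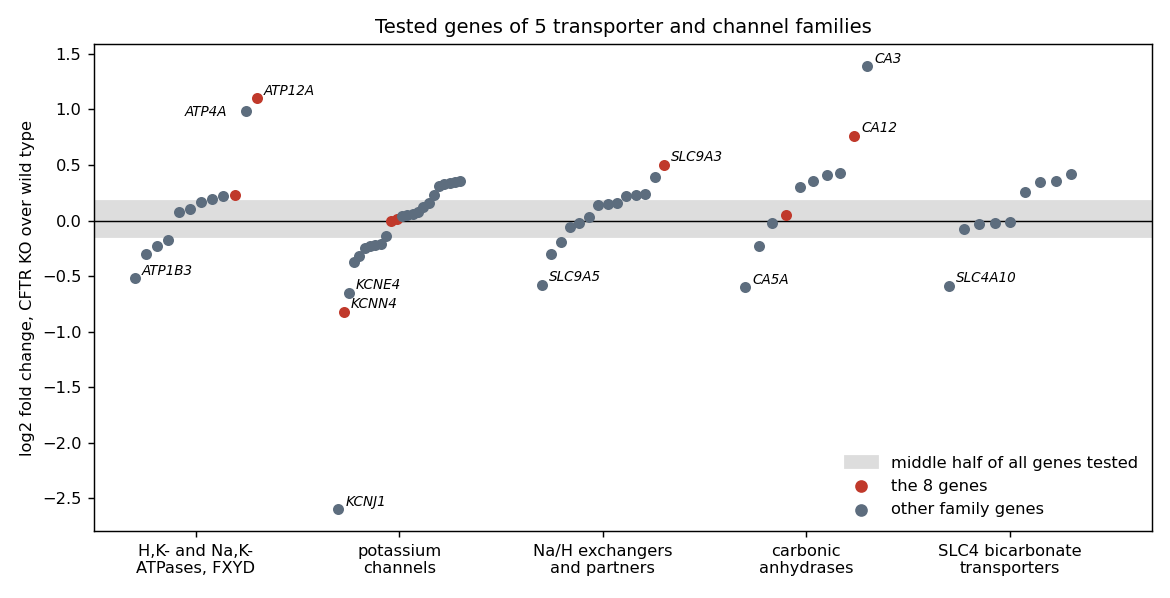
edgeR log2 fold change (knockout over wild type) of every tested gene of 5 families, sorted within each family, with the 8 genes in red, other genes in grey-blue and the range between the quartiles of all 17175 tested genes as a band from -0.15 to 0.18. ATP12A (1.10) and ATP4A (0.99) stand apart from the other pump genes, and KCNJ1 (-2.60) lies lowest.

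**Figure D4:**
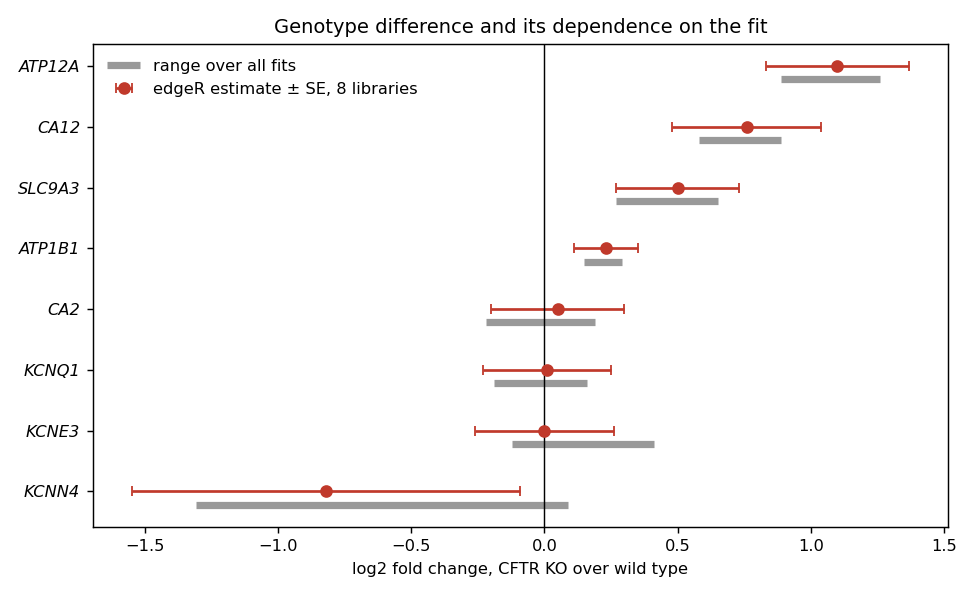
edgeR log2 fold change (knockout over wild type) ± SE of the 8 genes with all libraries (red), and the range of the estimate over all fits tried (grey). The ranges of ATP12A (0.89 to 1.26), CA12 (0.58 to 0.89), SLC9A3 (0.27 to 0.65) and ATP1B1 (0.15 to 0.29) stay above 0, and those of CA2, KCNQ1, KCNE3 and KCNN4 cross it.

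Markers of other cells were set beside the higher values of ATP12A and CA12, and edgeR called none of those given here. All 6 tuft or microvillous cell markers had a positive log2 fold change (median 0.78), and they summed to 23.9 to 39.1 CPM in knockout and 18.2 to 28.0 CPM in wild-type piglets. All 7 matched sensory neuron markers were positive as well (median 0.35), where 51.6% of all genes tested were. The 3 tested erythroid markers (median 1.16), 5 osteoblast and bone markers (2.13) and 4 osteoclast markers (2.92) were all positive. Each of these lists had its highest sum in knockout piglet 18. The other knockout piglets had 515 to 970 CPM of bone and 8.52 to 15.6 CPM of osteoclast markers, against 830 to 2670 and 9.19 to 116 CPM in wild-type piglets. In limma with sample quality weights most signs of these 2 lists turned. Log2 fold changes were -0.43 (COL1A1), -1.0 (IBSP), 0.11 (SPP1), -0.33 (SP7) and -0.54 (ALPL). For osteoclasts they were -0.77 (ACP5), -1.35 (MMP9), 0.05 (DCSTAMP) and -0.1 (TNFRSF11A). Of the 6 matched sustentacular markers of 8, 2 were positive and 4 negative (median -0.09). They summed to 4300 to 5610 CPM in knockout and 4810 to 6340 CPM in wild-type piglets. The 4 matched basal cell markers of 6 were all negative (median -0.21), with summed levels of 170 to 240 CPM in knockout and 179 to 279 CPM in wild-type piglets. Of the leukocyte markers, 7 of 7 matched and 6 tested, 5 were positive (median 0.94), and they summed to 231 CPM in knockout piglet 18, against 51.1 to 61.2 CPM in the other knockout piglets and 46.0 to 56.6 CPM in wild-type piglets. Among them ITGAM, an integrin of myeloid cells, had 16.0 to 25.1 CPM in knockout and 8.07 to 16.1 CPM in wild-type piglets, a log2 difference of 0.91 ± 0.23 with an edgeR adjusted p of 0.334 and a DESeq2 adjusted p of 0.0164. Ionocyte markers, 5 of 6 matched, summed to 18 to 56.5 CPM in knockout and 18.6 to 26.3 CPM in wild-type piglets, with 41.3 CPM from ATP6V0D2 in knockout piglet 18, a proton pump subunit that osteoclasts also use. FOXI1, the defining transcription factor of these proton-pumping cells, had 9.17 to 14.3 CPM in knockout piglets and 10.8 to 12.5 CPM in wild-type piglets. The motile ciliated markers summed to 375 to 531 CPM in knockout and 462 to 519 CPM in wild-type piglets. The part of any of these cells in the values of the 8 genes was not tested.

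To describe how the members vary apart from genotype, each group's mean was subtracted from log2 CPM and Pearson's r was taken over the 8 libraries. These libraries differed in depth and in summed cell markers, and the part of either in r was not tested. Over the 28 pairs of members r ran from -0.68 to 0.82, with 5 pairs above 0.5 and 3 below -0.5. The highest belonged to SLC9A3 and CA12 (0.82), followed by KCNE3 and KCNN4 (0.70) and by ATP1B1 and CA12 (0.68). KCNQ1 and KCNE3, which form 1 channel, had r = -0.31. Within knockout and within wild-type piglets, r was 0.87 and 0.91 for SLC9A3 and CA12. It was 0.25 and 0.82 for KCNE3 and KCNN4, 0.41 and 0.96 for ATP1B1 and CA12, and -0.64 and -0.17 for KCNQ1 and KCNE3. Some pairs changed sign between the groups, such as KCNE3 and CA12 (0.95 in knockout and -0.89 in wild-type piglets). The groups thus did not share 1 pattern in all pairs. SLC9A3 and CA12 both had their highest knockout value in piglet 20 and their lowest in piglet 18, and in the wild type their highest value in piglet 12 and their lowest in piglet 5.

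Among 13161 other named genes that averaged 1 CPM or more, CFTR was the second most similar to KCNE3 (r = 0.972, Spearman's rho = 0.93), and r was 0.94 after omitting the libraries farthest from the median, knockout piglet 21 and wild-type piglet 5. CFTR had 6.31, 5.24, 7.43 and 8.37 CPM in knockout piglets 6, 18, 20 and 21, against 56.6, 34.3, 34.0 and 36.6 CPM in wild-type piglets 5, 9, 12 and 23. In both genes knockout piglets 21 and 20 were the highest of their group and piglet 18 the lowest, and wild-type piglet 5 was far above the other wild-type piglets. The gene most similar to KCNE3 was TMEM154 (r = 0.976). Of the genes compared, 53 (0.403%) had r of at least 0.9 with KCNE3.

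For ATP12A the most similar genes were CEACAM19 (r = 0.985) and the chemokine gene CCL20, named by position (r = 0.982). CCL20 had 7.13, 5.63, 5.72 and 48.7 CPM in knockout piglets 6, 18, 20 and 21, against 7.81, 17.7, 13.5 and 30.4 CPM in wild-type piglets 5, 9, 12 and 23, with its highest value in each group in the same piglet as ATP12A. Without those libraries, knockout piglet 21 and wild-type piglet 23, r was 0.94 for CCL20 and 0.91 for CEACAM19. Of the genes compared, 45 (0.342%) had r of at least 0.9 with ATP12A. Among the closest genes for the rest were KDF1 for ATP1B1 (0.992), KCTD21 and ME2 for KCNQ1 (0.958 and 0.942), C1GALT1C1 and CPNE1, both named by position, for KCNN4 (0.964 each), CAPS2 and FAM20B for SLC9A3 (0.971 and 0.968), ARHGAP4 and the guanylin receptor gene GUCY2C for CA2 (0.974 and 0.972), and NEIL2 and CNTROB for CA12 (0.982 and 0.980). A high r can come with little change in level. KCNQ1 varied 2.09-fold over the 8 libraries, while KCTD21 ran from 25.3 to 32.3 CPM and ME2 from 40.1 to 43.1 CPM. KCNN4 varied 13.7-fold, while C1GALT1C1 ran from 46.3 to 50.6 CPM and CPNE1 from 53.7 to 61.5 CPM. The r values are the highest of many from 8 libraries and are given as a description.

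**Figure D5:**
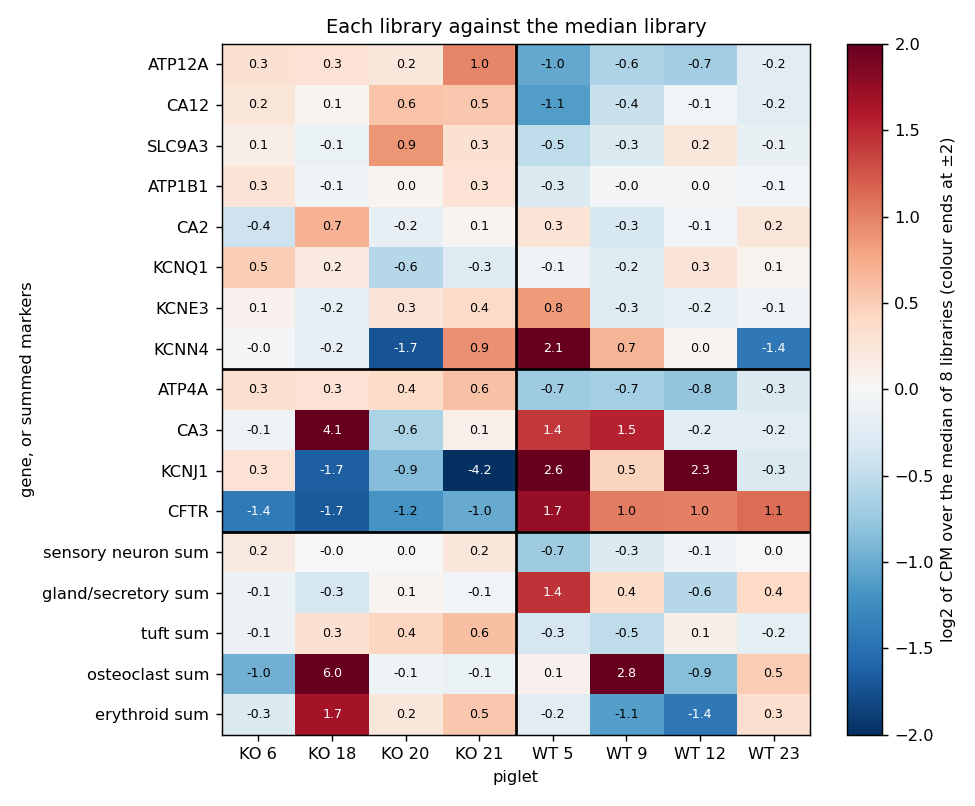
log2 of each library's CPM over the median of the 8 libraries, for the 8 genes (top), 4 other genes (middle) and summed markers of 5 cell types (bottom), with knockout piglets left of the line and wild-type piglets right of it. ATP12A, CA12 and ATP4A are higher left of the line, KCNE3, KCNN4 and CFTR are highest in wild-type piglet 5 together with the gland and secretory sum, and CA2 and CA3 are highest in knockout piglet 18 together with the osteoclast sum.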

How the data were processed

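Olfactory epithelium was dissected and frozen, and mRNA libraries were made with a TruSeq kit, per the labels. The table deposited by the authors holds unnormalized counts for each gene, laid out as featureCounts output per the file headers, with each gene's exon length in bases as another column. The submitters' processing notes name DESeq2, HTSeq, featureCounts, FastQC, Subread 1.5.0-p3 and STAR 2.4.0, without roles. Genome build and strand setting are not given in the sources used here, so values of genes with overlapping exons are uncertain.

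The 25880 pig genes took at least 99.9982% of reads. Symbols were paired through a table of gene names, with 1623 named by at least 50% overlap in RefSeq Sscrofa11.1. Counts were fitted with edgeR 4.0.16 in R 4.3.3 (quasi-likelihood test, TMM, default filter, 17175 genes, threshold 0.05 after Benjamini-Hochberg adjustment), with DESeq2 1.42.0 and limma 3.58.1 as alternatives. The scripts were tested on simulated data. Standard errors came from the F statistic, and 0.5 was added to CPM before logarithms for correlations.

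Named genes were the 8 members, CFTR, up to 4 genes per family by smallest p and 2 by RPKM, and the 2 most similar genes per member. Results of 4 genes that this rule names are not reported here. Members and lists were chosen with earlier results of these data known. Libraries are labelled as separate piglets, and correlated at 0.986 to 0.995.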

Additional observations from a re-analysis of the deposited data

Results flagged for a closer look

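In 2 of 16 groups of 4 values (8 genes in 2 genotypes), 1 piglet lay far from the rest by Dixon's criterion, which chance gives in about 1 group of 20. ATP12A had 4.42 CPM in knockout piglet 21, against 2.64 to 2.76 CPM in the other knockout piglets. KCNE3 had 13.2 CPM in wild-type piglet 5, against 6.14 to 6.93 CPM in the other wild-type piglets.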

How the results depend on the processing

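Among the alternatives, edgeR with other scalings and filters, limma with sample quality weights and the omission of libraries called none of the 8 genes, and DESeq2 called 1 member (ATP12A, log2 fold change 1.10) and 2 family genes (ATP12A and ATP4A). Over all genes, against 1 call in the main fit, DESeq2 called 246, limma with sample quality weights 11, and edgeR 2 without both knockout piglet 18 and wild-type piglet 5 and 0 to 16 when 1 library was left out. CFTR stayed between -2.67 and -2.36 without each library and missed the threshold without knockout piglet 6 or 20 (edgeR adjusted p = 0.122 and 0.0544).

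The log2 fold changes of KCNQ1, KCNE3, KCNN4 and CA2 changed sign in some fits, none of them called. With all libraries KCNQ1, KCNE3 and CA2 were near 0, and KCNN4 was at -0.82 ± 0.73. KCNQ1 was -0.01 with upper quartile scaling, 0.00 with no filter, -0.01 with limma weights, -0.09 without piglets 18 and 5, and -0.19 to 0.16 without each library. KCNE3 was 0.24 with limma weights, 0.41 without piglets 18 and 5, and -0.12 to 0.32 without each library. KCNN4 was 0.06, 0.09, and -1.31 to 0.03 in the same fits, and it was removed by a filter at a mean of 1 CPM. CA2 was -0.08, -0.15, and -0.22 to 0.19. The causes were not tested. The DESeq2 fits of ATP12A and ATP4A without each library were chosen after seeing the data. ATP12A, CA12, SLC9A3 and ATP1B1 kept their sign in all 15 alternatives. No paired analysis was possible because the labels give no litter or batch by which to pair piglets. Read depth limits KCNN4 most, at 5 to 65 reads.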
